A study of Mus musculus with 24 samples.

Results

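Transcripts of 9 genes that carry, store or release iron and heme, or bind zinc and copper, were followed across all 8 groups of the series. They are *Hmox1*, *Ftl1*, *Fth1*, *Slc40a1*, *Tfrc*, *Cp*, *Mt1*, *Mt2* and *Mt3*, 9 of the 22274 genes listed, chosen by symbol. All 9 passed the filter on low counts in every comparison. The tissue came from male C57BL/6J mice and was bulk hypothalamus, taken to include the supraoptic and paraventricular nuclei, or bulk hippocampus. The Sham group, which the labels place at day 0, is the control without the lesion. In the PEL groups a pituitary stalk electrical lesion (PEL), a cathodic current passed through a 3D-printed knife placed stereotaxically, was made, and the hypothalamus was taken at day 3 (PEL_3d) or day 10 (PEL_10d). Each of these hypothalamic groups had a counterpart labelled as treated with growth hormone, here Sham_GH, PEL_3d_GH and PEL_10d_GH, for which neither dose nor schedule is given in the sources used here. The hippocampus was taken from Sham mice (HIP_Sham) and from PEL mice at day 10 (HIP_PEL_10d). Each group held 3 libraries of 15095267 to 17973494 counts. No Sham group was taken at day 3 or day 10, so the lesion and the time since surgery cannot be told apart.

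Iron that enters a cell through the transferrin receptor (*Tfrc*) is either used, stored inside the ferritin shell, whose heavy and light chains are encoded by *Fth1* and *Ftl1*, or exported by ferroportin (*Slc40a1*) with the help of the ferroxidase ceruloplasmin (*Cp*). Heme oxygenase 1 (*Hmox1*) opens the heme ring and releases its iron, and in brain it is known as a gene of macrophages and glia that take up blood. Metallothioneins bind zinc and copper through cysteine. *Mt1* and *Mt2* are inducible and prominent in astrocytes, while *Mt3* is largely a neural form.

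Several of these transcripts are also regulated after transcription. Iron regulatory proteins bind a hairpin, the iron-responsive element, in their untranslated regions (UTRs), blocking translation from a 5′ UTR and slowing decay from a 3′ UTR when iron is low, so transcript and protein can move separately. Only transcripts were measured here. A search of the GENCODE M21 transcripts for a 27-base hairpin with an unpaired C, 5 paired bases on each side of a 6-base loop of the letters CAGTGN in which N is A, C or T, and at least 3 pairs in the lower stem found it in the 5′ UTR of 7 of 20143 genes (0.0348%) and the 3′ UTR of 23 of 20841 genes (0.11%). *Fth1*, *Ftl1* and *Slc40a1* held 1 each in the 5′ UTR, *Tfrc* held 4 in the 3′ UTR, and *Hmox1*, *Cp*, *Mt1*, *Mt2* and *Mt3* held none by this rule. The other 5′ UTR matches were *Alas2*, *Ftl1-ps1*, *Ppp1r1b* and *Serpina3g*. The hairpins are shown because they set the storage and export genes, and *Tfrc*, apart from the other members; the loop is in capitals.
*Fth1*: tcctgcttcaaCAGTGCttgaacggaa
*Ftl1*: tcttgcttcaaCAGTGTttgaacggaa
*Slc40a1*: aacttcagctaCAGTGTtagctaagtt
*Tfrc* hairpin 1: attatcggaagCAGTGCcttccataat
*Tfrc* hairpin 2: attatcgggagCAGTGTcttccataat
*Tfrc* hairpin 3: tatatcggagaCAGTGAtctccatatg
*Tfrc* hairpin 4: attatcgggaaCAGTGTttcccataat
On GRCm38 these lie in exons at chr19:9982733-9982759 on the plus strand for *Fth1*, chr7:45459780-45459806 on the minus strand for *Ftl1* and chr1:45925466-45925492 on the minus strand for *Slc40a1*. Those of *Tfrc* lie on the plus strand at chr16:32631220-32631246, chr16:32631599-32631625, chr16:32631664-32631690 and chr16:32631711-32631737. The 3 metallothionein genes are neighbours on the plus strand of chromosome 8, *Mt3* at chr8:94152607-94154146, *Mt2* at chr8:94172664-94173568 and *Mt1* at chr8:94179082-94180327. *Hmox1* lies on the same chromosome at chr8:75093621-75100589, and *Cp* at chr3:19957054-20009145.

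Before the groups were compared, 3 libraries were checked against their labels. The library labelled hypothalamic Sham 1 had 0.453 FPKM (fragments scaled for transcript length and library size) of the vasopressin gene *Avp*, against 139.9 and 223.2 in Sham 2 and Sham 3, and 14320 FPKM of the choroid plexus gene *Ttr*. Its 14 hippocampus markers summed to 476.7 FPKM, against 113.8 and 114.8 in the other Sham libraries. The sum of its hypothalamus markers was 8.45 FPKM, against 1371 and 1334. The library labelled HIP_Sham 1 had 139 FPKM of *Avp*, a hypothalamus marker sum of 1141 FPKM, against 1.29 and 2.65 in HIP_Sham 2 and 3, and a sum of 117.8 over the hippocampus markers, against 731.1 and 667.9 in HIP_Sham 2 and HIP_Sham 3. HIP_Sham 3 carries hypothalamus in its tissue label but hippocampus in its title, and its *Avp* level was 0.309 FPKM. The library labelled Sham 1 was left out of the main comparisons, as the study did with 1 hypothalamic Sham sample, and the library labelled HIP_Sham 1 was kept, with values also given without it. The hypothalamic Sham group therefore has n = 2. Members differed with it: *Fth1* had 2623 FPKM in the library labelled Sham 1, where the other Sham libraries had 1182 and 1384 FPKM.

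At day 3 after the lesion, *Hmox1* and *Ftl1* rose most among the members, *Slc40a1*, *Fth1*, *Mt2*, *Mt1* and *Cp* rose less, and *Tfrc* fell. Log2 fold changes against Sham ran from 4.89 (*Hmox1*) to -0.26 (*Tfrc*). The quasi-likelihood test of edgeR, adjusted over all genes by the Benjamini-Hochberg method, called 7 members higher and 1 lower at an adjusted p under 0.05, where 22.2% of the 14905 genes tested were called higher and 18.2% lower. The median log2 fold change was 0.80 over the members and -0.01 over all genes tested. The same comparison in growth hormone-treated mice, which shares no library with the first, called 8 members higher and *Tfrc* lower, against 26.9% and 25.2% of genes. In bulk tissue, a rise in the number of cells that express a gene and a rise in RNA per cell cannot be told apart.

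**Figure D1:**
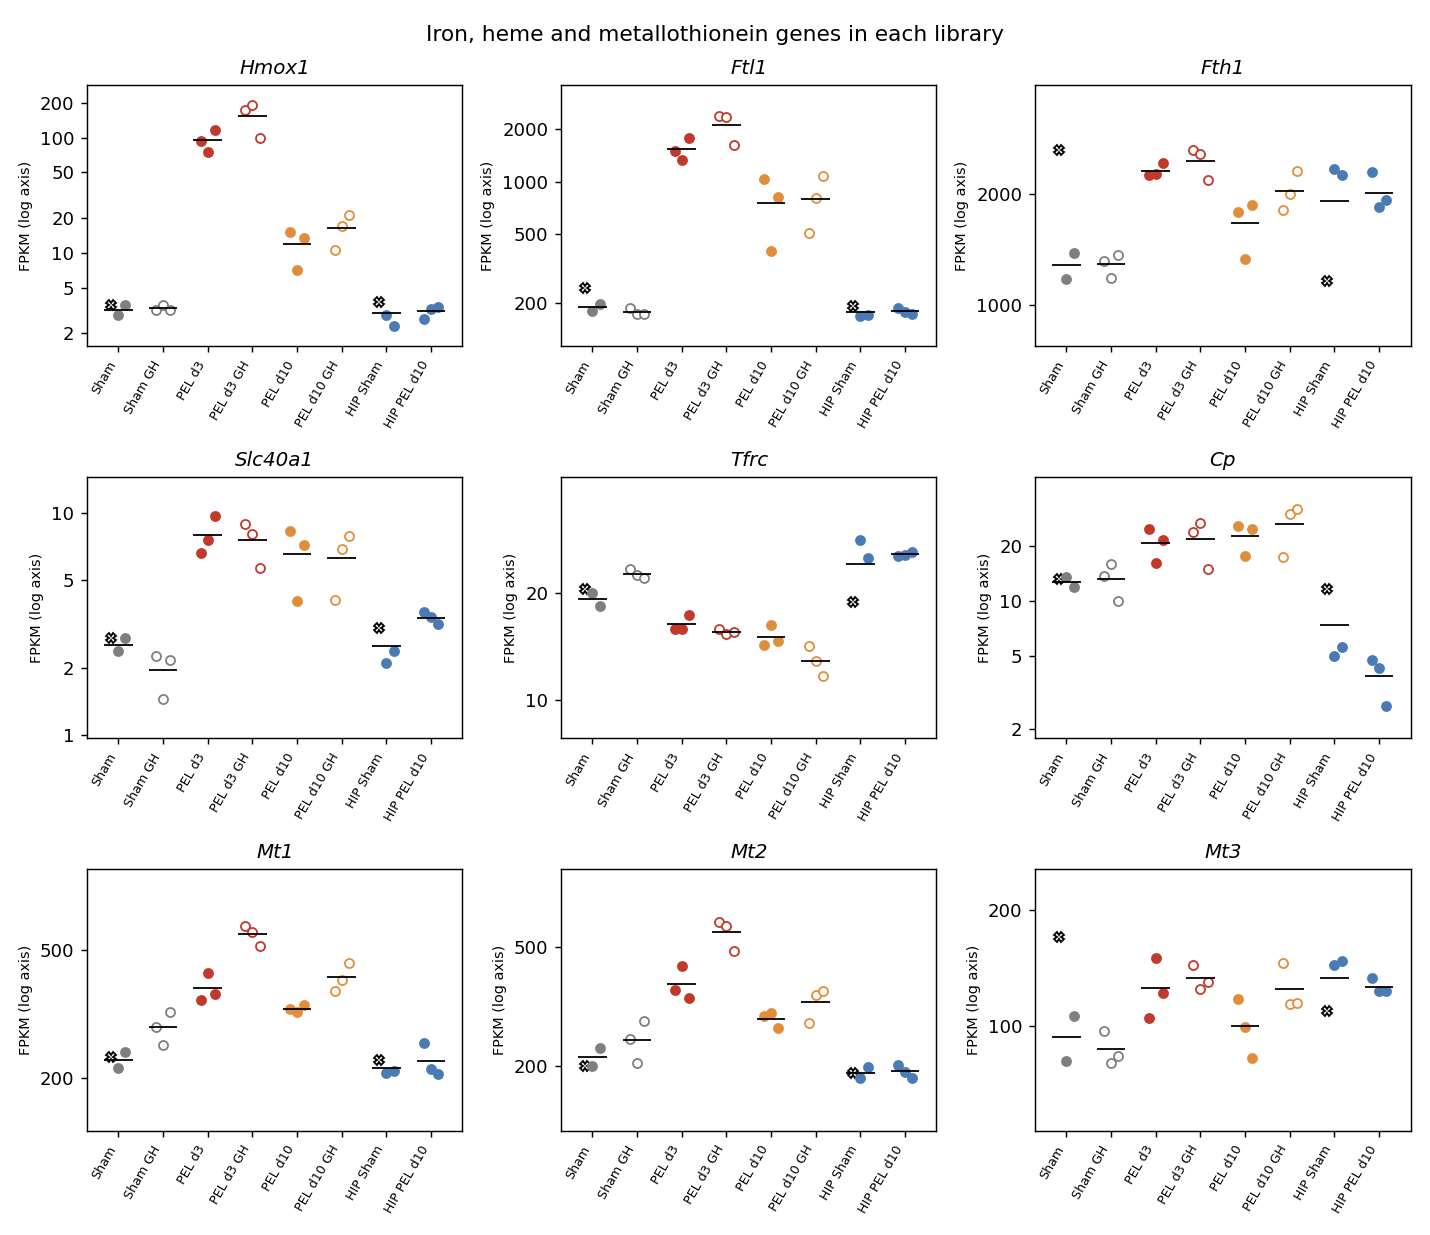
Level of each member in every library, in FPKM on a log axis, by group (d3 and d10 are day 3 and day 10; HIP is hippocampus). Filled circles are libraries without growth hormone, open circles those with it, crosses the libraries labelled Sham 1 and HIP_Sham 1, and bars the group means, which leave out Sham 1; *Hmox1* and *Ftl1* in all 12 lesioned hypothalamic libraries sit above all unlesioned ones, and the hippocampal groups stay low.

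*Hmox1* was low without a lesion, at 2.87 and 3.52 FPKM in Sham. In Sham_GH it was at 3.18, 3.54 and 3.20 FPKM. In PEL_3d it reached 93.3, 76.1 and 118.1 FPKM, and in PEL_3d_GH 176.3, 192.4 and 99.4 FPKM. By day 10 it was at 15.1, 7.07 and 13.5 FPKM, and at 10.6, 17.2 and 21.4 FPKM with growth hormone. No lesioned library overlapped an unlesioned one, and no day 10 library overlapped a day 3 library. The log2 fold change against Sham was 4.89 ± 0.21 (SE; adjusted p = 1.04e-07) at day 3 and 1.87 ± 0.31 (adjusted p = 0.00794) at day 10. Day 10 against day 3 gave -3.01 without growth hormone and -3.26 with it, both called.

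The ferritin chains did not move in proportion. *Ftl1* rose from 181.4 and 199.0 FPKM in Sham to 1501, 1336 and 1780 FPKM in PEL_3d, a log2 fold change of 3.00 ± 0.12 (SE). *Fth1* rose from 1182 and 1384 FPKM to 2251, 2257 and 2425 FPKM, a log2 fold change of 0.84 ± 0.08 (SE). At day 10, *Ftl1* stood at 1041, 400.2 and 814.1 FPKM and *Fth1* at 1790, 1335 and 1871 FPKM. *Ftl1* in PEL_10d remained above every Sham library, while *Fth1* in PEL_10d 2 fell within the Sham range and the gene was not called (log2 fold change 0.37, adjusted p = 0.124), although DESeq2 called it (adjusted p = 0.0314), as did the fit without PEL_10d 2 (0.51, adjusted p = 0.00809) and that with the replicate block (adjusted p = 0.0141). With growth hormone *Fth1* was called at day 10 as well, at 1811, 2001 and 2310 FPKM against 1183 to 1367 FPKM in Sham_GH (log2 fold change 0.65). Oligodendrocyte markers, led by *Mbp*, were higher there too, at 4125 to 4605 FPKM against 2312 to 2568 FPKM in sum with 9 of 9 called, and stood at 3517 to 3694 FPKM in PEL_10d against 2184 and 3014 FPKM in Sham and at 6152 FPKM in the library labelled Sham 1. Their part in the *Fth1* levels was not tested.

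On the FPKM scale, which allows for transcript length, the heavy chain was the more abundant transcript in every library. The *Ftl1*:*Fth1* ratio was 0.149 ± 0.007 (SD, n = 2) in Sham and 0.139 ± 0.010 (n = 3) in Sham_GH. It rose to 0.664 ± 0.071 in PEL_3d and 0.861 ± 0.099 in PEL_3d_GH, and stood at 0.439 ± 0.141 in PEL_10d and 0.383 ± 0.095 in PEL_10d_GH (n = 3 each). All 12 lesioned libraries had a higher ratio than all 5 unlesioned ones, a difference of 1.95 on the log2 scale (two-sided exact permutation test over libraries, p = 0.000162, the smallest that 6188 permutations can give here; adjusted over 8 ratio comparisons, 0.00129). Day 10 was lower than day 3 by 0.92 on the log2 scale (exact permutation p = 0.00216, adjusted 0.00866, 6 against 6 libraries). These tests pool libraries with and without growth hormone and, in the first, both days. A near-identical copy, *Ftl1-ps1*, took at most 0.332% of the counts of the pair, although counts of *Ftl1* were not whole numbers in 23 of 24 libraries, so how reads were shared between them is uncertain.

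**Figure D2:**
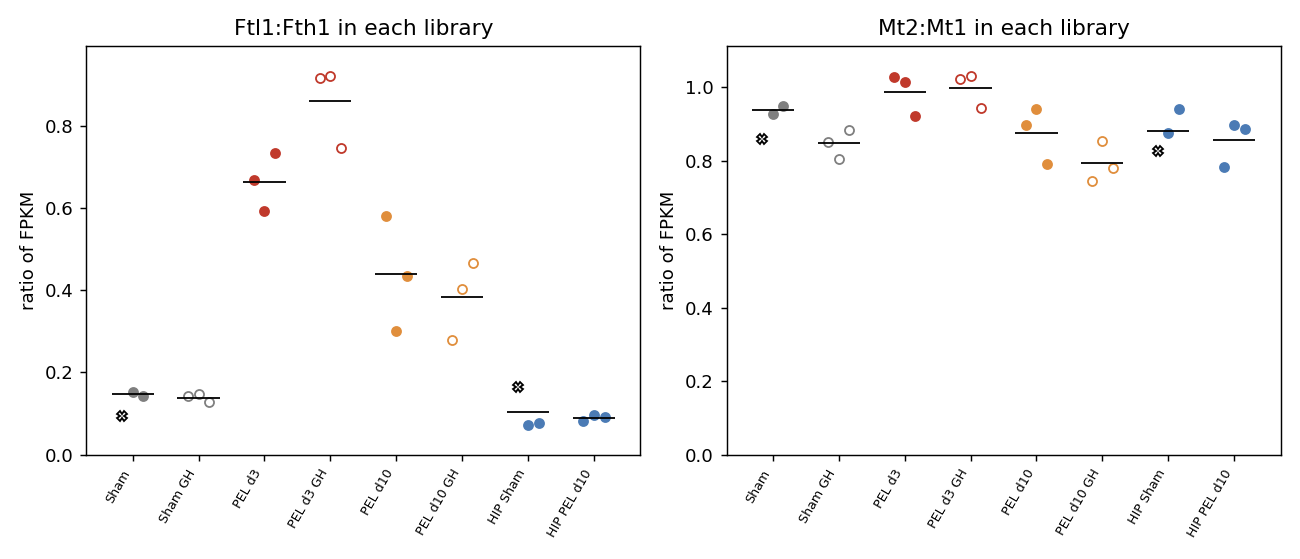
Ratio of *Ftl1* to *Fth1* (left) and of *Mt2* to *Mt1* (right) in FPKM for every library by group, with symbols as in the plot of member levels. The first ratio is 0.127 to 0.154 in the 5 unlesioned hypothalamic libraries used and 0.280 to 0.921 in the lesioned ones, while the second stays between 0.746 and 1.03 in all hypothalamic libraries used.

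The exporter and its ferroxidase partner were higher at both days. *Slc40a1*, which encodes the only known cellular iron exporter, was at 2.38 and 2.72 FPKM in Sham, 6.58 to 9.65 FPKM in PEL_3d and 4.02 to 8.31 FPKM in PEL_10d. The log2 fold changes were 1.62 at day 3 and 1.32 at day 10, and the groups did not overlap with Sham. At day 10 the call of *Slc40a1* held in 10 of 14 alternatives, and was lost with limma on log2(FPKM + 1) (adjusted p = 0.0596). *Cp* was at 13.6 and 11.9 FPKM in Sham, 16.1 to 24.7 FPKM in PEL_3d and 17.6 to 25.6 FPKM in PEL_10d, with log2 fold changes of 0.68 and 0.87. Its call was lost at day 3 without Sham 3 (adjusted p = 0.0636) and in 1 fit of all hypothalamic groups (adjusted p = 0.0991), and at day 10 in 4 of 14 alternatives, that fit among them (adjusted p = 0.0931). With growth hormone it was lost at day 3 without Sham_GH 3 (adjusted p = 0.0624) and at day 10 in 5 of 14 alternatives, DESeq2 among them (adjusted p = 0.0509). Between day 10 and day 3 neither gene was called, with 95% intervals of the log2 difference of -0.82 to 0.24 for *Slc40a1* and -0.18 to 0.58 for *Cp*. With growth hormone the ranges of *Cp* overlapped at day 3, at 9.94 to 15.9 FPKM in Sham_GH and 14.9 to 26.6 FPKM in PEL_3d_GH. Leptomeninges and fibroblast markers moved with *Cp*, their sum being 151.7 and 162.8 FPKM in Sham, 182.3 to 335.3 FPKM in PEL_3d and 244.9 to 515.2 FPKM in PEL_10d, with 5 of 9 higher and 1 lower at day 3 and 7 of 9 higher at day 10, and their part was not tested.

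*Tfrc*, the import receptor, was the member that fell. In Sham it was at 20.05 and 18.4 FPKM, against 15.8, 15.9 and 17.4 FPKM in PEL_3d and 14.3, 16.2 and 14.6 FPKM in PEL_10d. In Sham_GH it was at 23.3, 22.4 and 21.98 FPKM, in PEL_3d_GH at 15.9, 15.3 and 15.5 FPKM and in PEL_10d_GH at 14.2, 12.9 and 11.7 FPKM. Every lesioned library lay below every unlesioned one. The log2 fold changes were -0.26 and -0.39 at day 3 and day 10 without growth hormone and -0.54 and -0.83 with it. Among the members that were called it had the smallest change at day 3 without growth hormone. That call was lost in several settings, such as limma on log2(FPKM + 1) (adjusted p = 0.074), and the log2 fold change was -0.18 without Sham 2. The day 10 call without growth hormone was also lost in several settings, among them limma on log2(FPKM + 1) (adjusted p = 0.0747) and the edgeR fit without PEL_10d 3 (adjusted p = 0.0537).

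The metallothioneins were abundant without a lesion, and *Mt1* and *Mt2* rose by less than *Hmox1* and *Ftl1*. *Mt1* was at 215.0 and 241.5 FPKM in Sham and 351.0, 426.8 and 366.3 FPKM in PEL_3d, a log2 fold change of 0.72. *Mt2* went from 199.5 and 229.2 FPKM to 360.8, 432.5 and 337.3 FPKM, a log2 fold change of 0.80. At day 10 *Mt1* was at 321.2 to 339.0 FPKM and *Mt2* at 268.2 to 302.0 FPKM, both still above Sham. *Mt3* was not called at either day without growth hormone, at 81.3 and 106.4 FPKM in Sham and 104.7 to 149.8 FPKM in PEL_3d (log2 fold change 0.40, 95% interval 0.07 to 0.74, adjusted p = 0.0556). At day 3 that call depended on the setting, and 6 of 14 alternatives called it, among them DESeq2 (adjusted p = 0.0297) and the fit without PEL_3d 1 (adjusted p = 0.0119). It was called with growth hormone at day 3 (log2 fold change 0.59) and day 10 (0.50). The *Mt2*:*Mt1* ratio was 0.938 in Sham and 0.847 in Sham_GH, 0.987 and 0.999 in PEL_3d and PEL_3d_GH, and 0.876 and 0.793 in PEL_10d and PEL_10d_GH. The mean at day 3 lay above, and that at day 10 below, the unlesioned group of the same growth hormone treatment. Pooled over the days, the lesion difference was 0.04 on the log2 scale (exact permutation p = 0.602), and the ratio was lower at day 10 than at day 3 by 0.25 on the log2 scale (exact permutation p = 0.00433, adjusted 0.0115). Astrocyte markers, 9 genes led by *Aldoc*, moved with *Mt1* and *Mt2*: their sum was 1191 to 1241 FPKM in Sham, 1845 to 2050 FPKM in PEL_3d and 1606 to 1671 FPKM in PEL_10d, with 5 called higher and 3 lower at day 3. The part of astrocytes in the metallothionein differences was not tested.

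At day 10, 6 members were higher than in Sham and *Tfrc* was lower, where 7.97% of 14801 genes were called higher and 1.43% lower. The comparison shares its Sham libraries with that of day 3, and it rests on them: no member was called without Sham 2 or with the library labelled Sham 1 included, and 1 was called without Sham 3, although the 7 members called kept their direction. Calls over all genes fell alike, from 1180 higher and 212 lower to 193 and 12 without Sham 2, 285 and 19 without Sham 3, and 265 and 4 with the library labelled Sham 1. *Fth1* and *Mt3*, which were not called, did not: *Fth1* ran from -0.11 (with the library labelled Sham 1) to 0.51 and *Mt3* from -0.31 to 0.27 over the alternatives. With growth hormone, 8 members were higher at day 10 than in Sham_GH and *Tfrc* was lower, against 17.7% and 13.3% of genes, and 7 to 9 members were called when each library was left out in turn. Between the days, *Hmox1*, *Ftl1*, *Fth1* and *Mt2* were lower at day 10 than at day 3 and none was higher, against 12.2% and 6.33% of genes. With growth hormone *Hmox1*, *Ftl1*, *Mt1*, *Mt2* and *Tfrc* were lower at day 10, against 10.8% of genes called lower and 4.81% higher. Of these *Tfrc* was called in 6 of 14 alternatives, and was lost with the replicate block (adjusted p = 0.101) and with limma on log2(FPKM + 1) (adjusted p = 0.0856). The count of members called with growth hormone fell to 3 without PEL_3d_GH 1, PEL_3d_GH 2 or PEL_10d_GH 2, and the count without growth hormone fell to 2 without PEL_3d 3 or PEL_10d 3. Over all genes, calls fell from 713 higher and 1602 lower to between 122 and 246 higher and between 582 and 824 lower in the first 3 of these fits, and from 938 and 1804 to 275 and 1058 without PEL_3d 3 and 739 and 1508 without PEL_10d 3. Pooled over days and growth hormone, lesioned against unlesioned hypothalamus called all 9 members, 8 higher and 1 lower, against 28.2% and 25.6% of 15337 genes, and each library could be left out without loss of a call.

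**Figure D3:**
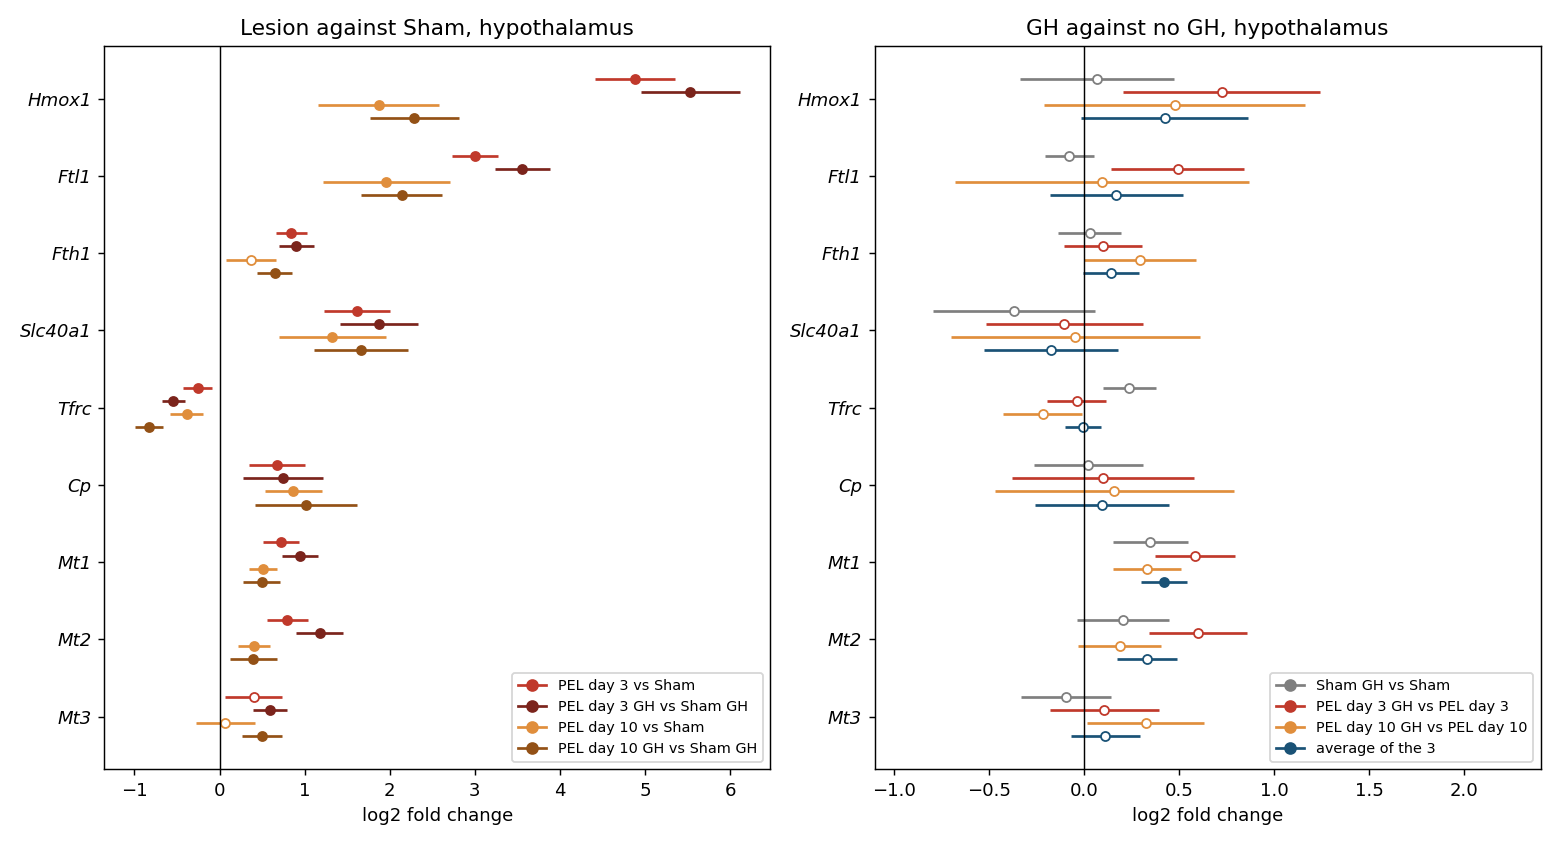
Log2 fold change of each member with its 95% interval, for lesion against Sham (left) and growth hormone against none (right), in the hypothalamus; filled points passed an adjusted p of 0.05. The lesion differences reach 5.53 for *Hmox1*, whereas the only filled point on the right is the average growth hormone difference of *Mt1*, at 0.42, a comparison added after its values were seen.

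Growth hormone was compared within each lesion state. By edgeR no member was called in PEL_3d_GH against PEL_3d, where 0.027% of genes were called higher and 0% lower. At an unadjusted p under 0.05 there were 4, *Hmox1*, *Ftl1*, *Mt1* and *Mt2*, among 1006 of 14798 genes. DESeq2 called 2, *Mt1* (log2 fold change 0.58) and *Mt2* (0.60), among 48 genes higher and 9 lower of 17972. The result turned on 1 library: PEL_3d_GH 3, the lowest of its group in *Hmox1*, *Ftl1* and *Slc40a1*, also had the lowest microglia and macrophage marker sum of its group, and without it *Hmox1*, *Ftl1*, *Mt1* and *Mt2* were all called, with log2 fold changes of 0.96, 0.65, 0.63 and 0.69, among 48 genes higher and 8 lower of 14913. No member was called in PEL_10d_GH against PEL_10d, where no gene was called (0% in each direction), with log2 differences from -0.22 (*Tfrc*) to 0.48 (*Hmox1*). The members at an unadjusted p under 0.05 were 4, *Fth1*, *Tfrc*, *Mt1* and *Mt3*, among 906 of 14763 genes. DESeq2 called none of the members, where it called 30 genes higher and 4 lower of 18042. In Sham_GH against Sham none was called, against 0.798% of genes higher and 0.296% lower, with log2 differences from -0.37 (*Slc40a1*) to 0.35 (*Mt1*). An unadjusted p under 0.05 was reached by 2, *Tfrc* and *Mt1*, among 2187 of 14539 genes. DESeq2 called 1, *Mt1*, among 188 genes higher and 68 lower of 17697. Without Sham_GH 2 edgeR also called *Mt1*, among 136 genes higher and 54 lower of 14444.

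*Mt1* was the member whose libraries separated by growth hormone in all 3 lesion states. This was seen among the 9 members without a prior choice of *Mt1*, and how many of all genes separate in this way was not counted. In Sham_GH it was at 289.2, 252.8 and 320.5 FPKM, above both Sham libraries. In PEL_3d_GH it was at 597.6, 572.2 and 517.2 FPKM and in PEL_10d_GH at 373.2, 404.1 and 458.0 FPKM, above every library of PEL_3d and PEL_10d respectively. The astrocyte marker sum was also higher with growth hormone in Sham_GH (1262 to 1311 FPKM) and PEL_10d_GH (1806 to 2236 FPKM) without overlap, and overlapped at day 3 (1888 to 2162 FPKM in PEL_3d_GH), and its part in the *Mt1* difference was not tested. The log2 differences were 0.35 ± 0.09, 0.58 ± 0.09 and 0.33 ± 0.08 (SE), with adjusted p of 0.0918, 0.121 and 0.621. Averaged over the 3 states in 1 fit of the 17 hypothalamic libraries, a comparison added after these values were seen, which restates them and is not independent evidence, the difference was 0.42 ± 0.06 (95% interval 0.30 to 0.54, adjusted p = 0.00179), and *Mt1* was the only member called, where 0.352% of genes were called higher and 0.0587% lower. It was called in all 25 alternatives tried for that average, with log2 differences from 0.39 to 0.45. *Mt2* followed at 0.33 (adjusted p = 0.0737) and *Hmox1* at 0.42 with a wider interval, -0.01 to 0.86.

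Whether growth hormone changed the size of the lesion difference was tested as an interaction. No member was called at day 3 (0.00659% of genes called higher, 0.0396% lower, 0 members by DESeq2) or at day 10 (0% each way, 0 members by DESeq2). At an unadjusted p under 0.05 there were 2 members among 1594 of 15164 genes at day 3, and 1 member among 1366 of 15116 genes at day 10. The nearest was *Tfrc*, whose fall was larger with growth hormone by 0.29 at day 3 and 0.45 at day 10 on the log2 scale, with adjusted p of 0.285 and 0.277. The growth hormone difference of *Tfrc* was 0.24 in Sham, -0.04 at day 3 and -0.22 at day 10. The day 3 value therefore rested mostly on the higher level in Sham_GH. Without PEL_3d_GH 3, *Ftl1* was called at day 3 (0.71, adjusted p = 0.0165), among 167 genes higher and 466 lower of 15138.

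In the hippocampus the same lesion left no member called at day 10 by edgeR or DESeq2. At an unadjusted p under 0.05 there were 2 members, *Slc40a1* and *Cp*, among 1434 of 14039 genes. By edgeR no gene passed the adjusted threshold (0% in each direction). That count over all genes changed without HIP_Sham 1, where 296 genes were higher and 577 lower of 14191, and DESeq2 with all libraries called 32 higher and 165 lower. *Hmox1* was at 2.87 and 2.31 FPKM in HIP_Sham 2 and 3, 3.78 FPKM in HIP_Sham 1, and 2.68, 3.26 and 3.40 FPKM in HIP_PEL_10d. *Ftl1* was at 169.5 to 191.6 FPKM in HIP_Sham and 174.4 to 188.8 FPKM in HIP_PEL_10d, with a 95% interval of the log2 difference of -0.11 to 0.26, and of -0.07 to 0.19 without HIP_Sham 1. The log2 difference of *Hmox1* was 0.12 (-0.37 to 0.62), and 0.25 (-0.24 to 0.73) without that library. *Slc40a1* was at 3.03, 2.11 and 2.398 FPKM in HIP_Sham and 3.56, 3.38 and 3.15 FPKM in HIP_PEL_10d, without overlap, where the microglia and macrophage marker sum was at 273.8 to 275.5 FPKM and 323.5 to 421.0 FPKM, also without overlap and with its part not tested. Among the alternatives tried *Slc40a1* was called only without HIP_Sham 1 (log2 fold change 0.55, adjusted p = 0.0476). *Cp* was at 11.7, 4.99 and 5.59 FPKM in HIP_Sham and 4.78, 4.296 and 2.68 FPKM in HIP_PEL_10d, without overlap, a log2 fold change of -0.98 (adjusted p = 0.41), or -0.61 (adjusted p = 0.0592) without HIP_Sham 1. The log2 differences of *Fth1*, *Tfrc*, *Mt1*, *Mt2* and *Mt3* lay between -0.05 and 0.13, and between -0.23 (*Mt3*, adjusted p = 0.074) and 0.08 without HIP_Sham 1. The choroid plexus marker sum was at 4399 and 5510 FPKM in HIP_Sham 2 and 3, 22.01 FPKM in HIP_Sham 1 and 42.7 to 809.7 FPKM in HIP_PEL_10d. The sum of leptomeninges and fibroblast markers was at 137.6, 68.0 and 83.1 FPKM in HIP_Sham and 45.2, 79.2 and 36.9 FPKM in HIP_PEL_10d. The part of either tissue in the *Cp* difference was not tested.

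The direct test of the difference between the regions gave log2 values of 1.89 (95% interval 0.97 to 2.80) for *Ftl1*, 1.85 for *Cp* and 1.75 for *Hmox1*, with adjusted p of 0.0518, 0.0502 and 0.0724, so that none passed, against 1.82% of genes higher and 0.0663% lower. At an unadjusted p under 0.05 there were 6 members, among 2242 of 15093 genes, and DESeq2 called 3, among 656 genes higher and 147 lower of 18353. Without HIP_Sham 1, 4 were called: *Ftl1* (1.87), *Hmox1* (1.59), *Cp* (1.45) and *Mt2* (0.39), where 981 genes were higher and 635 lower of 15053, against 274 and 10 with it. Without PEL_10d 2, 4 were called: *Ftl1*, *Hmox1*, *Cp* and *Slc40a1*, among 317 genes higher and 9 lower of 15022. No gene was called without Sham 2 or without Sham 3, where 1606 and 1559 genes had an unadjusted p under 0.05. At day 10 after the lesion all 9 members differed between the hypothalamus and the hippocampus, 6 higher and 3 lower in the hypothalamus, where 30.9% and 29.7% of genes were called. *Cp* (log2 difference 2.48), *Ftl1* (1.81) and *Hmox1* (1.68) led those higher, and *Tfrc* (-1.05), *Mt3* (-0.59) and *Fth1* (-0.50) were lower. Of these calls *Fth1* was lost with limma on log2(FPKM + 1) (-0.29, adjusted p = 0.108), and *Slc40a1* (0.70) in 4 of 13 alternatives, with 0.49 without PEL_10d 1.

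The markers of microglia and macrophages were higher after the lesion, and lower at day 10 than at day 3. Without growth hormone *Hmox1*, *Ftl1*, *Fth1* and *Mt2* also rose by day 3 and were lower at day 10. The other members were not called between the days, and *Tfrc* fell against Sham. The marker sum over 14 genes, led by *Ctss*, was 281.0 to 283.4 FPKM in Sham, 1946 to 2360 FPKM in PEL_3d, 2189 to 2853 FPKM in PEL_3d_GH, 915.5 to 1244 FPKM in PEL_10d and 1343 to 1668 FPKM in PEL_10d_GH, and all 14 were called higher at day 3. The 9 markers of infiltrating and border macrophages, led by *Lyz2*, went from 19.2 to 21.8 FPKM in Sham to 434.4 to 992.7 FPKM in PEL_3d and 144.2 to 716.5 FPKM in PEL_10d, and all 9 were called higher at day 3. With growth hormone their sum was 12.97 to 24.92 FPKM in Sham_GH and 1040 to 1882 FPKM in PEL_3d_GH, above every PEL_3d library. In PEL_10d_GH it was 265.3 to 783.6 FPKM, which overlaps PEL_10d. Reactive astrocyte markers summed to 174.1 to 202.2 FPKM in Sham and 1314 to 1481 FPKM in PEL_3d, with 9 of 10 called higher. The part of these cells in the members' changes was not tested.

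The members were also set against the marker sums. Per 1000 FPKM of the microglia and macrophage sum, *Ftl1* was at 645.6 and 702.2 FPKM in Sham, 686.5 to 755.2 FPKM in PEL_3d and 437.1 to 836.6 FPKM in PEL_10d, ranges that overlap. With growth hormone it was at 641.6 to 805.5 FPKM in Sham_GH, 745.4 to 869.3 FPKM in PEL_3d_GH and 377.7 to 675.4 FPKM in PEL_10d_GH, where each lesioned range overlaps that of Sham_GH. *Hmox1* was at 10.2 and 12.4 FPKM in Sham, 39.1 to 50.03 FPKM in PEL_3d and 45.4 to 70.7 FPKM in PEL_3d_GH, all above the unlesioned libraries, and at 7.73 to 12.1 FPKM in PEL_10d, where it overlapped them. *Fth1* was at 4206 and 4885 FPKM in Sham and 1028 to 1160 FPKM in PEL_3d, and *Mt1* at 765.1 and 852.2 FPKM in Sham and 155.2 to 219.3 FPKM in PEL_3d, so both rose by less than the marker sum. The picture for *Hmox1* depended on the marker list: per 1000 FPKM of the infiltrating and border macrophage sum, a list tried after the data were seen, it was at 131.8 and 182.9 FPKM in Sham and 127.6, 175.2 and 118.9 FPKM in PEL_3d, which overlap, and at 18.8 to 49.1 FPKM in PEL_10d, below Sham. With growth hormone it was at 142.1 to 246.6 FPKM in Sham_GH and, below that, at 95.5 to 102.2 FPKM in PEL_3d_GH and 27.3 to 39.8 FPKM in PEL_10d_GH. These ratios are descriptions and were not tested.

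**Figure D4:**
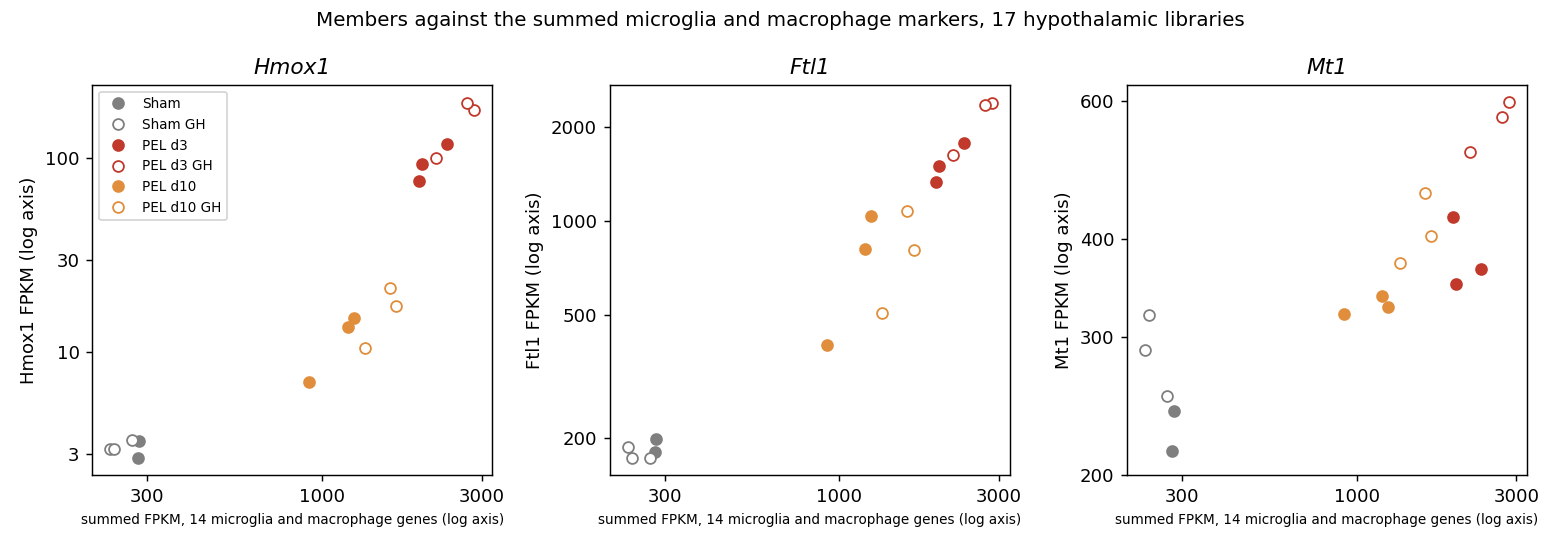
*Hmox1*, *Ftl1* and *Mt1* in FPKM against the summed FPKM of 14 microglia and macrophage markers in the 17 hypothalamic libraries used, both on log axes, colored by group. *Ftl1* runs from 173.5 to 2402 FPKM over marker sums of 232.8 to 2853 FPKM, *Hmox1* reaches 76.1 to 192.4 FPKM at day 3, and *Mt1* is higher in growth hormone-treated (open) than untreated (filled) libraries of each lesion state.

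Red cell markers were not called at day 3 without growth hormone but were higher at day 10 with it. The hemoglobin gene *Hbb-bs*, named after its values were seen, was at 14.4 and 8.66 FPKM in Sham and 13.2, 7.78 and 10.6 FPKM in PEL_3d, and none of the 5 erythroid markers tested was called by edgeR. In PEL_10d it was at 11.7, 20.2 and 57.3 FPKM and in PEL_10d_GH at 93.6, 29.6 and 21.5 FPKM, against 7.26 to 10.1 FPKM in Sham_GH, and 5 of 6 erythroid markers were higher and 1 lower in that comparison, beside the 17.7% and 13.3% of all genes. In PEL_3d_GH against Sham_GH 2 of 5 were higher and 1 lower, and in PEL_10d against Sham 0 of 5 were called. The part of blood in the members' changes was not tested. Neuronal markers were lower at day 3, with 8 of 9 called, at 1026 to 1146 FPKM in sum against 1278 to 1315 FPKM in Sham.

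The wider pathways were read from 7 lists, in lesioned against unlesioned hypothalamus. Heme breakdown and handling held 8 of 11 tested genes higher and none lower, led by the hemoglobin-binding haptoglobin *Hp* (log2 fold change 2.82), the biliverdin reductase *Blvrb* (1.09) and the *Hmox1* repressor *Bach1* (0.65). Of 9 heme synthesis genes 3 were higher and none lower, among them *Ppox* (0.33) and *Alas1* (0.33), which encodes the enzyme of the first step outside red cells. Iron uptake and transport held 9 of 18 higher, led by the phagosomal metal transporter *Slc11a1* (4.08), the siderophore-binding lipocalin *Lcn2* (3.53) and *Steap1* (1.55), and 1 lower, *Slc22a17* (-0.26), which encodes a receptor for lipocalin. Of 12 iron sensing and storage genes, 5 were higher, led by *Hfe* (1.23), whose product binds the transferrin receptor, *Ncoa4* (0.26), the cargo receptor for ferritin turnover, and *Bmpr1a* (0.17).

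The NRF2 list, genes of the oxidant response to which *Hmox1* also belongs, held 9 of 12 higher, led by *Osgin1* (1.68), the gene of NRF2 itself, *Nfe2l2* (1.32), and *Prdx1* (0.71), and 2 lower, *Keap1* (-0.15), which encodes the NRF2 inhibitor, and *Gclc* (-0.13). Of 16 zinc and copper genes, 6 were higher, led by the zinc importers *Slc39a1* (1.05) and *Slc39a4* (1.04) and the copper chaperone *Atox1* (0.68), and 2 lower, *Slc30a10* (-0.22) and *Slc39a10* (-0.19). The list of glutathione peroxidases and ferroptosis genes split, with *Lpcat3* (0.94), *Gpx1* (0.87) and *Gpx4* (0.28) higher and *Acsl4* (-0.27) and *Gpx3* (-0.24) lower of 8. These shares stand beside the 28.2% and 25.6% of all genes called. At day 3 without growth hormone, where 22.2% of all genes were higher and 18.2% lower, 8 of 11 heme breakdown genes, 8 of 12 NRF2 genes, 3 of 12 iron sensing genes and 2 of 8 heme synthesis genes were higher and none lower. In the other lists 8 of 18 iron uptake genes were higher and 1 lower, 5 of 16 zinc and copper genes higher and 2 lower, and 3 of 8 glutathione and ferroptosis genes higher and 1 lower. At day 10, where 7.97% were higher and 1.43% lower, none was lower in any list, and those higher were 2 of 10, 4 of 12, 1 of 12, 0 of 8, 2 of 17, 1 of 16 and 2 of 8 in the same order of lists.

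**Figure D5:**
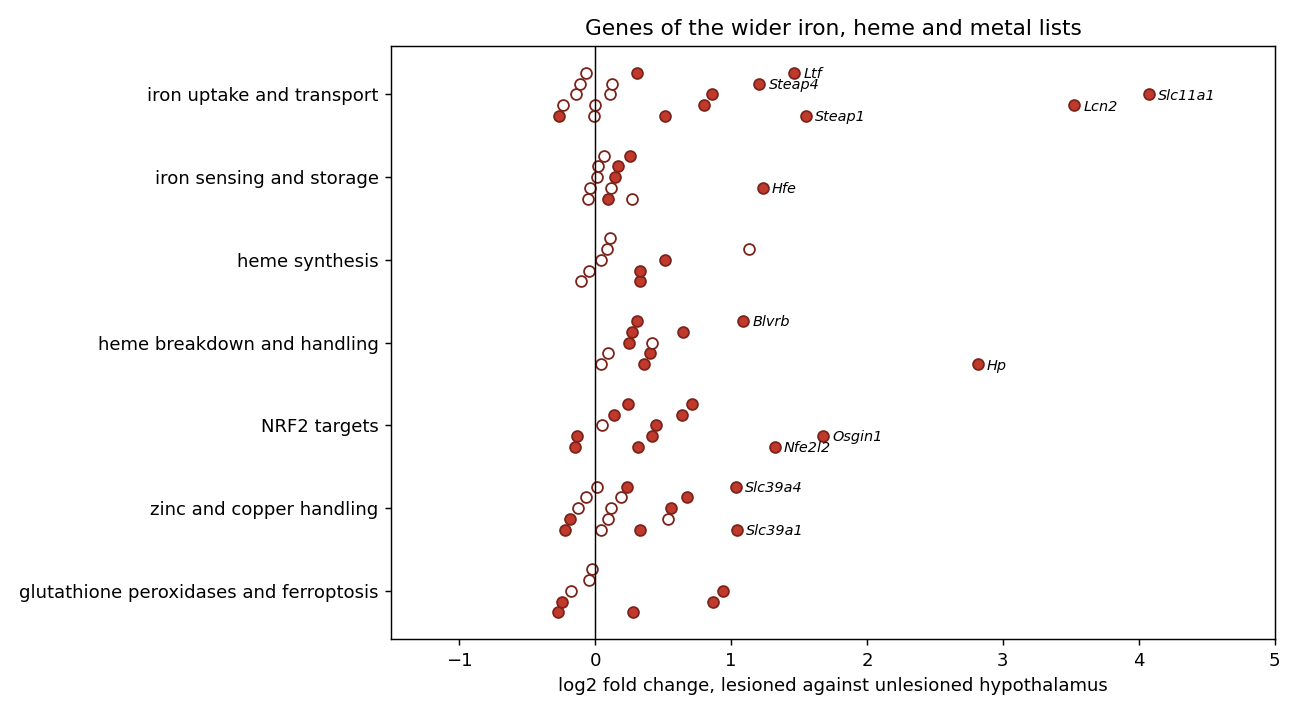
Log2 fold change of each tested gene of the 7 lists in lesioned against unlesioned hypothalamus; filled points passed an adjusted p of 0.05, and called genes past 1 are named. The 11 heme breakdown genes lie above 0, led by *Hp* at 2.82, and *Slc11a1* at 4.08 is the farthest point.

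Across the 17 hypothalamic libraries, which share lesion, time and treatment, the members' log2 levels were correlated, as a description only. *Ftl1* went with *Fth1* (Pearson r = 0.963) and *Hmox1* (0.962), *Mt1* with *Mt2* (0.956), and *Tfrc* ran opposite to every other member, from -0.489 with *Mt2* to -0.79 with *Slc40a1*. Of 13395 genes with a mean FPKM of at least 1, the most like *Hmox1* were *Gusb* (0.996), *Spp1* (0.995) and *Plin2* (0.994), and the most like *Ftl1* were *Adam8* (0.994), *Ctsd* (0.992) and *Scpep1* (0.992). *Fth1* was closest to *Rnaset2a* (0.974), *Sqor* (0.973) and *Gabarap* (0.972), and *Slc40a1* to *Tec* (0.973), *Lgals3* (0.967) and *Clec4d* (0.961). *Tfrc* stood with the sterol synthesis genes *Idi1* (0.911), *Hmgcs1* (0.903) and *Sc5d* (0.900), *Cp* with *Slc7a2* (0.963), *Itih5* (0.960) and *Foxc1* (0.955), and *Mt3* with the ribosomal protein genes *Rpl30* (0.926), *Rplp2* (0.924) and *Rpl36* (0.921). *Mt1* was closest to *Selenop* (0.958), then to *Mt2* and *Mertk* (0.939), and *Mt2* was closest to *Mt1*, then to *Hebp1* (0.953) and *Cib1* (0.936).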

How the data were processed

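The 24 mRNA libraries were compared from 1 deposited table with an FPKM value and an estimated count for each gene and library. The study's methods name Hisat2 (v2.0.5) for alignment, featureCounts (v1.5.0-p3) for counting and DESeq2 (1.10.1) for testing by the authors, and the submitters' processing notes name GRCm38. FPKM values deposited by the authors are scaled for length and library size and were used for levels and ratios. The estimated counts deposited by the authors were rounded for the tests, since 8.22% are not whole. Symbols were matched for 22219 of 22274 genes. Library totals were 15095267 to 17973494. Where nothing says that samples came from separate animals, p-values measure only the spread between these samples.

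Tests between groups used edgeR 4.0.16 under R 4.3.3 (quasi-likelihood test, TMM, filterByExpr with a minimum count of 10, Benjamini-Hochberg adjustment over all genes tested, threshold 0.05), each fit on the groups compared. Standard errors are the log2 fold change divided by the root of F. Simulated counts were run through some of the fits beforehand, with the outcome not given here. Alternatives were DESeq2's size factors, DESeq2 1.42.0, no count filter, genes averaging 50 counts or more, a block for replicate number, 1 fit of all hypothalamic groups, limma 3.58.1 on log2(FPKM + 1) and log2(FPKM + 0.1) for genes with a mean FPKM of at least 0.5, each library left out, and the library labelled Sham 1 included. Likeness between genes was Pearson's r of log2(FPKM + 0.1). The rule for named genes took all members, by value or range, with at most the 3 genes of largest change per direction from each pathway list, markers by their sum, and 3 genes most like each member. Members, lists and comparisons were chosen with earlier results of these data known. Python 3.11.15 with pandas 2.3.3 handled the tables. Some results of the heme synthesis and red cell lists are not reported here.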

Additional observations from a re-analysis of the deposited data

How the results depend on the processing

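Of 955 values of called members under the alternatives, 884 kept their call and direction, 71 kept their direction but lost the call, and 0 reversed. The counts of members called moved by over 1.5 times as follows. For PEL_10d against Sham the 7 became 0 with the library labelled Sham 1, and 0 to 8 with each library left out (0 without Sham 2, 1 without Sham 3). For PEL_10d_GH against PEL_3d_GH the 5 became 3 with the replicate number as a block (replicate block) and 3 to 6 with each library left out (3 without PEL_3d_GH 1, PEL_3d_GH 2 or PEL_10d_GH 2). For PEL_10d against PEL_3d the 4 became 2 to 4 with each library left out, the lowest without PEL_3d 3 or PEL_10d 3. For PEL_3d_GH against PEL_3d the 0 became 2 with DESeq2, 1 with all hypothalamic groups in 1 fit and 0 to 4 with each library left out (4 without PEL_3d_GH 3). For Sham_GH against Sham the 0 became 1 with DESeq2, with no count filter and with the replicate block, and 0 to 1 with each library left out (1 without Sham_GH 2), in each case *Mt1*. For the interaction of growth hormone and lesion at day 3 the 0 became 0 to 1 (1 without PEL_3d_GH 3), and for the hippocampus 0 to 1 (1 without HIP_Sham 1). For the region interaction the 0 became 3 with DESeq2, 2 with a mean count of at least 50, 1 with the replicate block and 0 to 4 with each library left out (4 without HIP_Sham 1 or PEL_10d 2). For the average growth hormone difference, added after the data were seen, the 1 became 2 with DESeq2 and with no count filter, and 1 to 2 with each library left out (2 without Sham_GH 2, PEL_3d 2, PEL_3d_GH 3 or PEL_10d_GH 1). With the library labelled Sham 1 included, *Fth1* (log2 fold change 0.37, adjusted p = 0.553) and *Tfrc* (-0.31, adjusted p = 0.111) at day 3 and *Mt3* in lesioned against unlesioned hypothalamus (0.19, adjusted p = 0.32) lost their calls. The cause of these changes was not tested. Of 43 pairs of libraries that share a number, 12 had deviations correlated over 0.1, with r from -0.48 to 0.4. All pairs lay within a region, so pairing by number between hypothalamus and hippocampus was not checked. Within a region, groups this small cannot settle whether the numbers pair the samples. Other counts stayed within 1.5 times. Groups of 2 or 3 libraries limit every comparison, and the lowest count of *Hmox1* in a library was 61.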
